A study of Mus musculus and Homo sapiens with 34 samples.

Results

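Gene expression was measured by RNA sequencing in H1651, an established human lung adenocarcinoma cell line, in which the transcription factor HNF4α (gene HNF4A) had been raised with doxycycline. The comparison rests on 4 of the 34 libraries of the series, namely 2 labelled doxycycline and 2 labelled without doxycycline, and all genes of their count table were used. Per the labels, the cells carried a lentiviral HNF4α overexpression construct and were given 1 µg/mL doxycycline for 7 days; the matching libraries were labelled as controls of the same 7 days, and the overexpression genotype is written only for the doxycycline libraries. Nothing in the labels says which promoter drives the construct, whether the cells were a clone or a pool, or whether the replicates were separate cultures, so p-values measure the spread between these libraries, which may be technical. No group received doxycycline without the construct, so effects of the drug and of HNF4A cannot be told apart.

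HNF4α is a nuclear receptor that binds DNA as a homodimer and maintains the gene programmes of hepatocytes, the intestinal epithelium, the kidney proximal tubule and pancreatic cells. In liver and gut it is known for switching on apolipoproteins and lipoprotein assembly, plasma proteins, the actin-based brush border of absorptive cells, nutrient carriers, and enzymes of drug, sugar and amino acid metabolism. Normal lung epithelium lacks it, and it is found in invasive mucinous lung adenocarcinomas and in others that have lost the lung regulator NKX2-1. The question was which genes differ when HNF4A is raised further in a lung cancer line.

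The 4 libraries held from 23042260 to 26148681 counts over 20800 listed genes, of which 17351 were tested. Levels are given as CPM, a gene's counts relative to its library's total, with the total corrected by TMM factors, and 3 counts correspond to between 0.115 and 0.132 CPM. Mitochondrial transcripts took from 5.40% to 5.82% of the counts in each library. The epithelial genes CDH1 (E-cadherin; 67.9 and 67.1 CPM without doxycycline, 84.7 and 75.3 with it) and EPCAM (2.56 and 0.993, then 3.81 and 2.74) were detected, beside the mesenchymal filament gene VIM (1284 and 1362, then 1225 and 1293). The alveolar surfactant gene SFTPB stood at 0.344 to 1.03 CPM and the alveolar protease gene NAPSA at 0.265 to 0.943 CPM over the 4 libraries, so these markers of lung adenocarcinoma were near the detection limit.

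HNF4A itself was at 47.1 and 35.9 CPM without doxycycline and at 94.4 and 96.8 CPM with it. Both doxycycline libraries lay above both others, and the log2 change was 1.20 (SE 0.13, adjusted p 0.00979, edgeR's quasi-likelihood test with Benjamini-Hochberg adjustment, used for every adjusted p below). The factor was therefore present before induction, and transcripts of the construct and of the cells' own gene were not separated here.

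Several other factors of the HNF4 network did not pass the test. HNF4G, the paralogue of HNF4A, was at 42.4 and 32.6 CPM without and 43.9 and 38.7 CPM with doxycycline, overlapping ranges with a log2 change of 0.14 (SE 0.13). FOXA1 and FOXA2, pioneer factors of endoderm, had log2 changes of 0.07 and 0.07, and FOXA3 one of -0.62 (adjusted p 0.601). GATA6, an endodermal factor, was at 6.14 and 5.96 CPM and then at 10.1 and 8.78 CPM, with no overlap but an adjusted p of 0.119. NR1I2, the drug-sensing receptor PXR, went from 0.371 and 0.115 to 1.61 and 1.10 CPM (adjusted p 0.0944) and was called only without no-doxycycline replicate 1 (log2 change 3.52) among the left-out fits. NKX2-1, the lung lineage factor, was at 41.1 and 29.1 CPM and then at 30.6 and 24.3 CPM. Its ranges overlapped, and the log2 change of -0.35 did not pass (adjusted p 0.499). Over the list of 24 HNF4 and partner factors, 20 were tested, 2 rose, none fell, and the median log2 change was 0.21, against a median of -0.0037 over all genes tested.

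Across all genes, 247 of 17351 (1.42%) were called at an adjusted p under 0.05, of which 180 rose (1.04%) and 67 fell (0.386%). In each of the 247 both doxycycline libraries lay on one side of both others, which was also true of 7533 of all tested genes (43.4%). Rises had a median log2 change of 1.10, with 104 genes changed at least 2-fold, 55 at least 4-fold and 27 at least 16-fold. Falls had a median of -0.84 and ended at -2.55, with 23 genes changed at least 2-fold, 1 at least 4-fold and 0 at least 16-fold. Counts moved by more than 1.5 times without no-doxycycline replicate 1 (412 called, 159 lower), without doxycycline replicate 2 (410 called, 140 lower) and, for falls, without doxycycline replicate 1 (101).

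Rises were sorted by their starting level. Among the 180, 46 genes had a mean under 1 CPM without doxycycline, and these had means of 0.849 to 24.4 CPM with it (median log2 change 4.44). A further 40 started between 1 and 10 CPM, with a median log2 change of 1.72. The other 94 started at 10 CPM or more, and their median was 0.76, with 21 changed at least 2-fold. Of the 67 falls, 59 started at 10 CPM or more. A gene near 0 without doxycycline enters the test only through its doxycycline counts and passes only with a large rise, and a fall from there could hardly be called, so the sizes by starting level describe the genes called and not a difference between rises and falls.

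**Figure D1:**
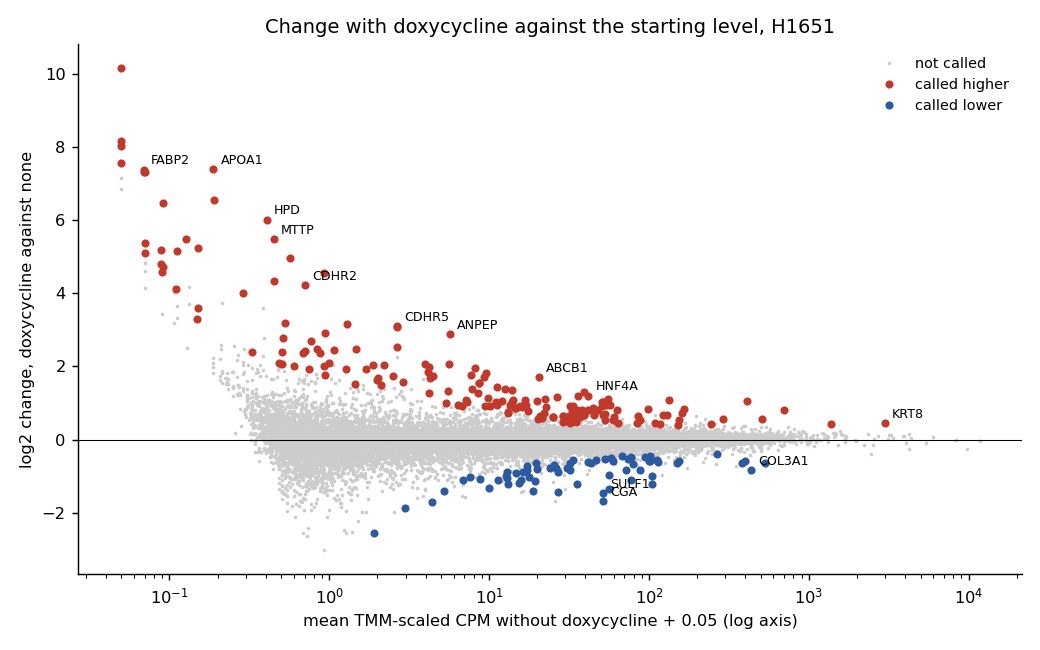
Each point is one of the 17351 tested genes, with the mean TMM-scaled CPM without doxycycline plus 0.05 on a log axis against the log2 change with doxycycline; red points rose, blue points fell and grey points were not called. The rises of more than 16-fold all sit at the left, among genes under 1 CPM without doxycycline, while the blue points lie mostly at 10 CPM or more.

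Genes of lipoprotein assembly showed some of the largest changes. APOA1, the main protein of high-density lipoprotein, had 3 and 4 counts (0.124 and 0.153 CPM) without doxycycline and 545 and 619 counts (21.4 and 27.3 CPM) with it. This is a 174-fold higher level by summed counts (95% counting interval 84.4 to 435, adjusted p 0.000416). APOA4, carried on chylomicrons, went from 4 and 3 counts to 386 and 270, a 98.3-fold ratio (interval 47.4 to 245, adjusted p 0.000493). APOC3, an inhibitor of lipoprotein lipase and a neighbour of both in the genome, had 0 and 1 counts and then 105 and 88 (adjusted p 0.00268). The 3 genes were thus close to the floor in both libraries without doxycycline and well above it in both with it.

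MTTP, the transfer protein that loads lipid onto apolipoprotein B, rose from 0.453 and 0.344 to 19.8 and 16.1 CPM (log2 change 5.48, SE 0.24, adjusted p 0.000416). APOB, its substrate and the structural protein of chylomicrons and very-low-density lipoprotein, was at 0.124 and 0.0763 CPM and then at 6.01 and 1.77 CPM (adjusted p 0.0356). Its doxycycline replicates lay far apart, though both were above the others. APOE, a ligand of lipoprotein receptors that was already expressed, rose from 60.02 and 41.1 to 113 and 93.1 CPM (log2 change 1.03, SE 0.18, adjusted p 0.0484), a call lost with upper-quartile factors (1.02) and with at least 10 counts required in every library (1.03). A1CF, the RNA-binding cofactor of APOB mRNA editing, was outside the list and was chosen after its values were seen. It rose from 8.49 and 8.51 to 19.8 and 21.5 CPM (log2 change 1.28, adjusted p 0.00529). Of 18 tested genes on the apolipoprotein and lipoprotein assembly list, 6 rose, none fell and 14 had a positive change (median 0.38). Members near 0 without doxycycline, such as APOA1, APOA4, APOC3 and APOB, entered the test only through their doxycycline counts and could hardly fall. The tally, the sign count and the median draw on them. With at least 10 counts in every library the list held 0 rises.

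Plasma proteins made by the liver held 2 calls. SERPINA1, the protease inhibitor α1-antitrypsin, had 0 and 4 counts without doxycycline and 91 and 91 with it, a 47.7-fold ratio (interval 18.3 to 177, adjusted p 0.0112). RBP4, the retinol carrier of blood, rose from 9.15 and 9.51 to 15.8 and 19.6 CPM (log2 change 0.92, SE 0.14, adjusted p 0.0337). They were the calls among 30 tested members, whose median log2 change was 0.24. FGB, a fibrinogen chain, was at 58.5 and 22.9 CPM without and 51.4 and 18.1 CPM with doxycycline. Its level followed the replicate number in both groups, and the ranges overlapped. ALB, the gene of albumin, stayed between 0.496 and 2.03 CPM in the 4 libraries (adjusted p 0.646).

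**Figure D2:**
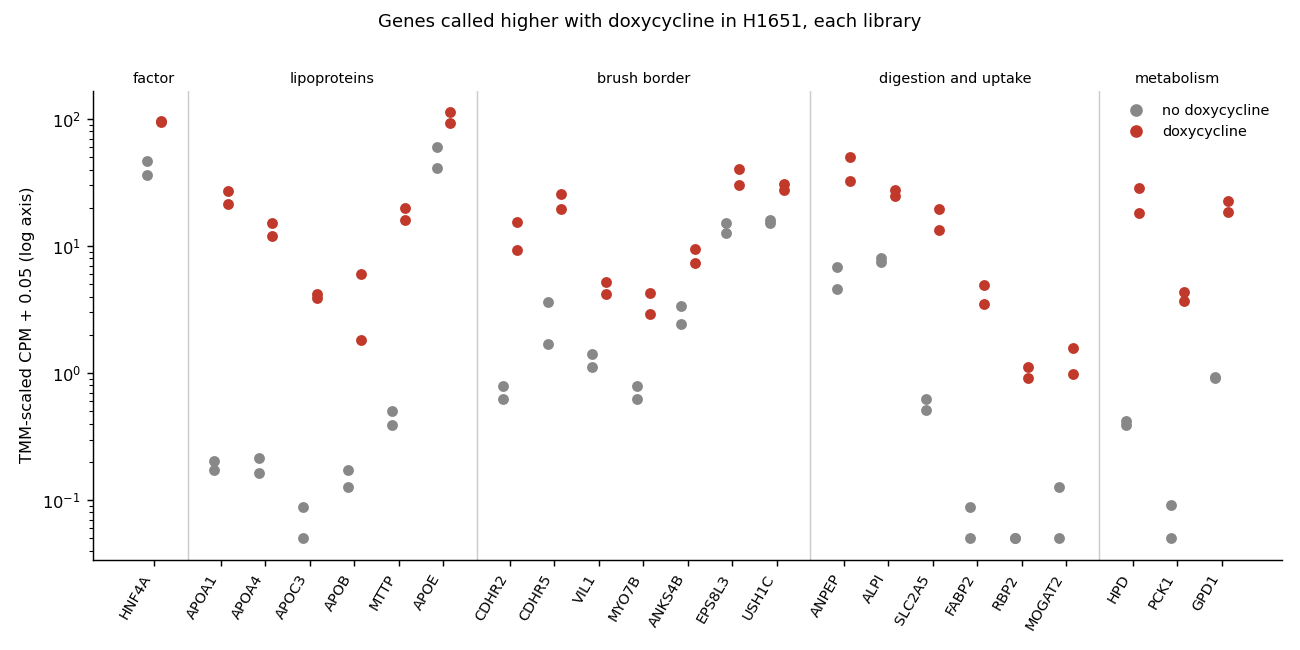
TMM-scaled CPM plus 0.05 on a log axis for genes called higher, with 1 point for each library (grey without, red with doxycycline) and genes grouped by function. In every gene shown both red points lie above both grey points, from a log2 change of 0.91 for USH1C to 174-fold for APOA1.

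Brush border genes held more calls than any other list, while 1.04% of all tested genes rose. The lists were chosen with earlier results of these data known, so this order only describes them. The brush border is the array of microvilli on absorptive cells, held together at its tips by a complex of the protocadherins CDHR2 and CDHR5 with USH1C, ANKS4B and the motor MYO7B. CDHR2 was at 0.742 and 0.573 CPM without doxycycline and at 15.5 and 9.23 CPM with it (log2 change 4.23, SE 0.34, adjusted p 0.00337). CDHR5 went from 1.65 and 3.59 to 19.5 and 25.9 CPM (log2 change 3.10, SE 0.31, adjusted p 0.00826). MYO7B went from 0.742 and 0.573 to 4.20 and 2.87 CPM (2.43, adjusted p 0.0215). For the 2 scaffold proteins the rise was smaller: ANKS4B moved from 3.30 and 2.37 to 9.35 and 7.33 CPM (1.56, adjusted p 0.0288) and USH1C from 15.2 and 15.9 to 27.6 and 30.9 CPM (0.91, adjusted p 0.0127). All 5 named parts of the tip complex were therefore higher in both doxycycline libraries.

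Among the other members of the list, VIL1 (villin, which bundles actin) rose from 1.36 and 1.07 to 5.15 and 4.15 CPM (log2 change 1.94, adjusted p 0.0194). EPS8L3, a relative of the actin-capping protein EPS8, rose from 15.1 and 12.6 to 40.2 and 30.4 CPM (1.35, adjusted p 0.014). A pair of membrane proteins of the list rose as well: TM4SF5 from 0.948 and 1.11 to 4.52 and 6.75 CPM (2.44, adjusted p 0.0142), and TMIGD1 from 1 and 0 counts to 26 and 24 (adjusted p 0.0258). EZR, the general linker ezrin, was at 505 and 480.2 CPM and then at 540.4 and 512 CPM and was not called (log2 change 0.10, adjusted p 0.655). SLC9A3R1 (also named NHERF1), the microvillar scaffold, and the sodium-proton exchanger SLC9A3 that it anchors were both chosen after their values were seen. SLC9A3R1 rose from 95.7 and 102 to 160.1 and 190.3 CPM (0.83, adjusted p 0.0134) and SLC9A3 from 8.20 and 9.01 to 23.7 and 27.1 CPM (1.56, adjusted p 0.00337). Of 21 tested brush border and microvillus genes, 9 rose, none fell, 19 had a positive change, and the median log2 change was 1.13.

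Of 21 tested intestinal digestive enzymes and nutrient carriers, 6 rose and none fell (18 positive, median log2 change 0.93). Members near 0 without doxycycline entered the test only through their doxycycline counts. With at least 10 counts in every library the list held 3 rises. ANPEP, aminopeptidase N, rose from 6.76 and 4.505 to 50.3 and 32.3 CPM (log2 change 2.88, SE 0.26, adjusted p 0.00521). ALPI, intestinal alkaline phosphatase, rose from 7.96 and 7.44 to 27.4 and 24.8 CPM (1.76, SE 0.12, adjusted p 0.00192). ALPI has near-identical relatives, so the share of its reads that came from them is uncertain. SLC2A5, the fructose carrier GLUT5, rose from 0.577 and 0.458 to 19.5 and 13.3 CPM (4.98, adjusted p 0.00124). Each of the 3 had both doxycycline libraries above both others.

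The remaining calls of that list were genes of lipid handling inside the cell. FABP2, the intestinal fatty acid binding protein, had 0 and 1 counts and then 87 and 111 (adjusted p 0.00368). RBP2, which carries retinol in enterocytes, had 0 counts in both libraries without doxycycline and 22 and 24 with it. Against 3 counts over the group this was at least 16.1-fold higher (adjusted p 0.0305). MOGAT2, which rebuilds triglyceride from absorbed monoglyceride, had 0 and 2 counts and then 39 and 21 (adjusted p 0.0412). That call was lost without doxycycline replicate 1, when the log2 change was 4.38. FABP1, the liver form, was at 0.165 and 0 CPM and then at 1.97 and 1.06 CPM, and it did not pass (adjusted p 0.0669). It was called higher with DESeq2 (log2 change 4.24), without a count filter (4.17), without no-doxycycline replicate 1 (8.24) and without doxycycline replicate 2 (4.54). GUCY2C, the guanylate cyclase receptor of the gut surface, also rose, from 3.71 and 1.53 to 26.6 and 17.2 CPM (3.08, adjusted p 0.0148).

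Transport and metabolism of drugs and steroids included 6 rises among 29 tested genes (median log2 change 0.32, none lower). ABCB1, the efflux pump P-glycoprotein, rose from 21.1 and 19.8 to 69.0 and 63.9 CPM (1.70, SE 0.09, adjusted p 0.000759). SLCO2B1, an organic anion uptake carrier, rose from 0.536 and 0.267 to 9.67 and 6.44 CPM (4.33, adjusted p 0.00395). SLC51B, a subunit of the basolateral bile acid exporter, rose from 5.11 and 3.17 to 18.9 and 13.6 CPM (1.97, adjusted p 0.0186). The doxycycline libraries were above the others in each.

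The remaining 3 calls of that list come with limits. ABCC6, an efflux transporter, rose from 10.7 and 8.74 to 24.2 and 18.8 CPM (1.15, adjusted p 0.0274), and its pseudogene ABCC6P1, with which it can share reads, had a log2 change of 1.29 (adjusted p 0.0161). UGT1A6, a glucuronosyltransferase, rose from 1.40 and 1.41 to 4.44 and 3.58 CPM (1.51, adjusted p 0.0389), but it shares exons with the other genes of its locus. Its call was lost without no-doxycycline replicate 2 (1.52) and without doxycycline replicate 1 (1.34). HSD17B2, which inactivates sex steroids, had a log2 change of 0.94 (adjusted p 0.0494). Its call was lost without doxycycline replicate 1 (0.75), with RLE (0.95) or upper-quartile factors (0.94) and with at least 10 counts in every library (0.94).

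Sugar and amino acid enzymes of liver and gut gave 4 rises among 14 tested genes. PCK1, the cytosolic enzyme of gluconeogenesis, had 1 and 0 counts and then 110 and 82 (adjusted p 0.00337). HPD, of tyrosine breakdown, rose from 0.371 and 0.344 to 18.3 and 28.6 CPM (log2 change 6.02, adjusted p 0.0011). PCK2, the mitochondrial form of PCK1, moved from 34.8 and 39.3 to 52.9 and 61.5 CPM (0.62, adjusted p 0.044), a call lost without no-doxycycline replicate 1 (0.54) and with at least 10 counts in every library (0.62). The list's median log2 change was 0.25, and with at least 10 counts in every library it held 0 rises.

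Among the largest rises of all genes were other metabolic enzymes. GPD1, which links glycolysis to glycerol lipids, rose from 0.866 and 0.878 to 22.7 and 18.5 CPM (log2 change 4.56, SE 0.20, adjusted p 0.000416). PIPOX, a peroxisomal oxidase of pipecolic acid and sarcosine, rose from 1.40 and 1.07 to 10.9 and 11.3 CPM (3.17, adjusted p 0.00149). AGMAT, annotated as agmatinase and chosen after its values were seen, rose from 10.0 and 8.32 to 29.5 and 30.5 CPM (1.71, adjusted p 0.0023). Fatty acid oxidation held a single call. Of 26 tested genes of oxidation and ketogenesis 1 rose, the peroxisomal enzyme EHHADH, from 29.0 and 29.1 to 46.2 and 44.9 CPM (0.65, adjusted p 0.0148), and the median was 0.10.

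A few rises fell outside these groups. SUSD2, a cell surface glycoprotein, went from 2.64 and 2.56 to 14.3 and 15.5 CPM (2.52, adjusted p 0.00131), and TNNC1, the troponin C of slow muscle, from 5.32 and 5.88 to 21.5 and 26.0 CPM (2.08, adjusted p 0.00224). CLDN2, the leaky-junction claudin, rose from 2.60 and 1.68 to 8.41 and 9.005 CPM (2.03, adjusted p 0.0127), the only call among 17 tested claudin and tight junction genes. CDKN1A, KRT8 and JAG1 were chosen after their values were seen. CDKN1A, the cell cycle inhibitor p21, went from 57.9 and 49.7 to 111 and 94.5 CPM (0.94, adjusted p 0.0137). KRT8, a keratin of simple epithelia with many processed pseudogenes, went from 2989.5 and 2957 to 3861 and 4214 CPM (0.44, adjusted p 0.0451), a call lost without no-doxycycline replicate 1 (0.45) or 2 (0.44) and with at least 10 counts in every library (0.44). JAG1, a Notch ligand, went from 33.6 and 32.9 to 64.1 and 62.2 CPM (0.93, adjusted p 0.00337).

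The 15 largest falls in genes above 5 CPM had varied roles. SULF1, which trims heparan sulfate, fell from 44.3 and 59.2 to 16.9 and 20.5 CPM (log2 change -1.47, adjusted p 0.0115). The metalloproteinase genes MMP11 (19.0 and 18.5, then 6.17 and 8.08 CPM, -1.40, adjusted p 0.012) and MMP2 (45.3 and 67.3, then 23.2 and 20.9 CPM, -1.35, adjusted p 0.0198) fell as well. COL5A2, a fibrillar collagen chain, fell from 97.1 and 112 to 41.9 and 47.8 CPM (-1.22, adjusted p 0.00378). COL3A1, of the fibroblast and smooth muscle marker list and outside the 15, fell from 415 and 449 to 241 and 242 CPM (-0.84, SE 0.07, adjusted p 0.00387). LAMA1, a laminin chain also outside the 15 and chosen after its values were seen, fell from 531 and 527 to 358.2 and 314 CPM (-0.65, adjusted p 0.0163). In each of these genes both doxycycline libraries lay below both others. No list of matrix genes was used, and others moved differently: the laminin chains LAMA4 (13.1 and 11.8, then 29.0 and 35.8 CPM, 1.37, adjusted p 0.00711) and LAMB3 (51.7 and 51.04, then 91.4 and 72.7 CPM, 0.68, adjusted p 0.0433), also chosen after their values were seen, rose. SPARC (586 and 695, then 494 and 555 CPM, adjusted p 0.295) and TGFBI (461 and 440.4, then 494 and 470.5 CPM, adjusted p 0.646), genes of secreted matrix proteins, were not called.

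CGA, the common chain of the glycoprotein hormones, fell from 49.1 and 54.3 to 14.5 and 17.5 CPM (log2 change -1.69, SE 0.12, adjusted p 0.00193). CD36, a fatty acid and lipoprotein receptor, fell from 29.1 and 24.9 to 11.4 and 8.39 CPM (-1.45, adjusted p 0.0125), and GASK1B from 35.2 and 35.8 to 15.9 and 14.6 CPM (-1.22, adjusted p 0.00337). DCLK1, a microtubule-associated kinase (-1.32, adjusted p 0.0258), BOC, a hedgehog co-receptor (-1.20, adjusted p 0.0127), KIT, the stem cell factor receptor (-1.14, adjusted p 0.0412), and CCN3, a secreted matricellular protein (-1.12, adjusted p 0.0412), also fell. The calls of KIT (-1.14) and CCN3 (-1.12) were lost with at least 10 counts in every library. The largest fall of any level was in SLITRK6, a neuronal membrane protein, from 42 and 52 counts to 5 and 10 (-2.55, adjusted p 0.0458). It was lost without no-doxycycline replicate 2 (-2.44) or doxycycline replicate 1 (-2.06).

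Changes in markers of fibroblasts and smooth muscle are given member by member, with no test of the list. The list was chosen with earlier results of these data known. Over all tested genes 0.386% were called lower and 49.2% had a positive change. Of 10 markers 9 were tested, all 9 had negative changes, from -0.17 to -1.98 (median -0.84), and 2 were called, COL3A1 and the smooth muscle actin gene ACTA2 (11.6 and 10.9, then 4.95 and 5.43 CPM, -1.11, adjusted p 0.0197). The stromal receptor gene PDGFRB (19.8 and 31.5, then 5.90 and 10.3 CPM, adjusted p 0.0527) and DCN (decorin; 10.3 and 13.7, then 4.56 and 6.36 CPM, adjusted p 0.0643) did not pass. Both were called lower with DESeq2 (log2 change -1.66 for PDGFRB and -1.14 for DCN) and without a count filter (-1.67 and -1.15). PDGFRB was also called without each of the 4 libraries in turn (-2.12 to -1.29), and DCN without no-doxycycline replicate 1 (-1.33) or doxycycline replicate 2 (-1.40). None was at 0 in any library; PDGFRA, with 4 to 10 counts, was the one not tested. The summed level of the list was 745 and 835 CPM without doxycycline and 471 and 517 CPM with it, and its part in the falls of single genes was not tested. In bulk libraries fewer cells of a kind and less RNA per cell cannot be told apart. Markers of blood cells summed to between 6.003 and 8.02 CPM and those of endothelium to between 4.66 and 7.02 CPM, with no member called.

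**Figure D3:**
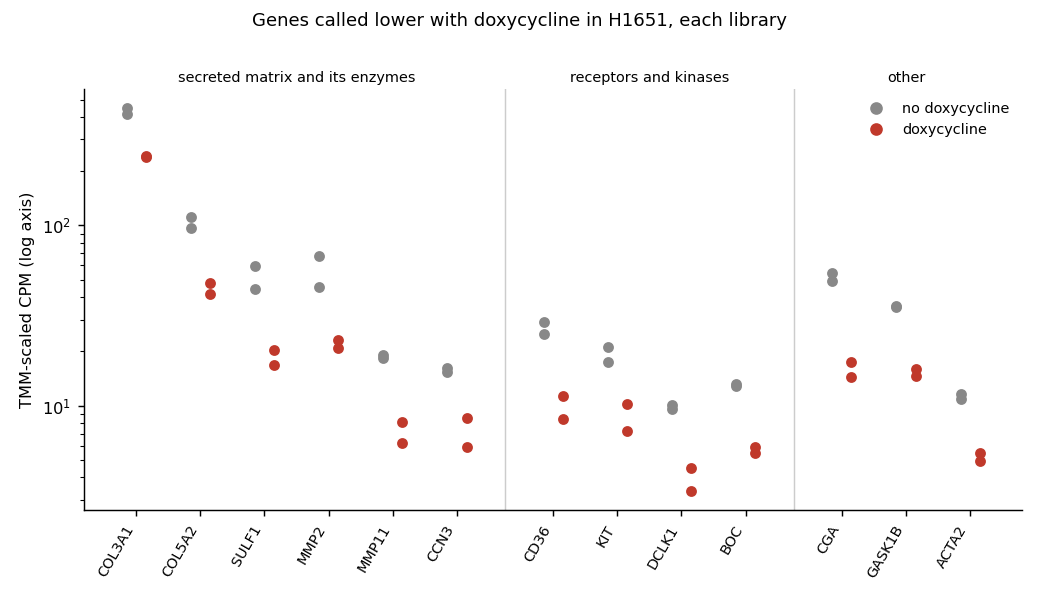
TMM-scaled CPM on a log axis for 13 genes called lower, with 1 point for each library (grey without, red with doxycycline). Both red points lie below both grey points in each gene, from COL3A1 (log2 change -0.84) to CGA (-1.69).

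In several other lists no member was called, which at a share of 1.42% over all tested genes is near the background for lists of this size and is not a result about them. No member was called among 10 alveolar type 2 genes (median log2 change -0.27, 2 positive), 7 gastric genes (-0.02), 10 mucins (-0.21), 27 proliferation genes (0.02) or 13 genes of the mitochondrial genome (-0.0003). The same held for 18 epithelial-mesenchymal transition genes (-0.07), 21 cholesterol synthesis genes (-0.13, with 19 negative) and 18 hypoxia and glycolysis genes (0.09). Those counts of 0 come from the quasi-likelihood test, and the same lists held 2, 2, 2, 0, 0, 4, 4 and 6 members at an unadjusted p under 0.05, while DESeq2 called 1 alveolar type 2 gene lower and no other member. Examples were the alveolar genes ABCA3, a surfactant lipid pump (42.7 and 37.9, then 38.8 and 26.7 CPM), and LPCAT1, of surfactant lipid synthesis (172 and 136, then 149.8 and 119 CPM), and the topoisomerase TOP2A of dividing cells (533 and 577, then 494 and 546 CPM). Their ranges overlapped.

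Other lists held 1 or 2 calls each, where 1.42% of all tested genes were called and 49.2% had a positive change. Calls this few are not a result about a list. Among 13 alveolar type 1 genes (median -0.30) the growth factor binding protein IGFBP2 rose, from 40.6 and 41.9 to 66.7 and 78.2 CPM (0.81, adjusted p 0.0134). Of 19 genes that report ERK signalling (median 0.005) the cyclin gene CCND1 (0.42, adjusted p 0.0337) and the phosphatase gene DUSP6 (0.54, adjusted p 0.0449) rose. The CCND1 call was lost without either no-doxycycline replicate or doxycycline replicate 1 (0.41 to 0.43), and that of DUSP6 without either no-doxycycline replicate or doxycycline replicate 2 (0.43 to 0.55) and with at least 10 counts in every library (0.54). Of 23 genes of the ATF4 and mitochondrial stress response 21 had a positive change (median 0.26) and 1 was called, the pseudokinase TRIB3 (0.46, adjusted p 0.033), whose call was lost without no-doxycycline replicate 2 (0.42). Interferon-stimulated genes moved both ways: IFI6 rose from 56.1 and 54.4 to 119 and 119 CPM (1.11, adjusted p 0.0014), IFI44 fell from 16.5 and 17.6 to 9.98 and 9.14 CPM (-0.84, adjusted p 0.0283), and the median of 20 was 0.02. The IFI44 call was lost without no-doxycycline replicate 2 (-0.79).

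**Figure D4:**
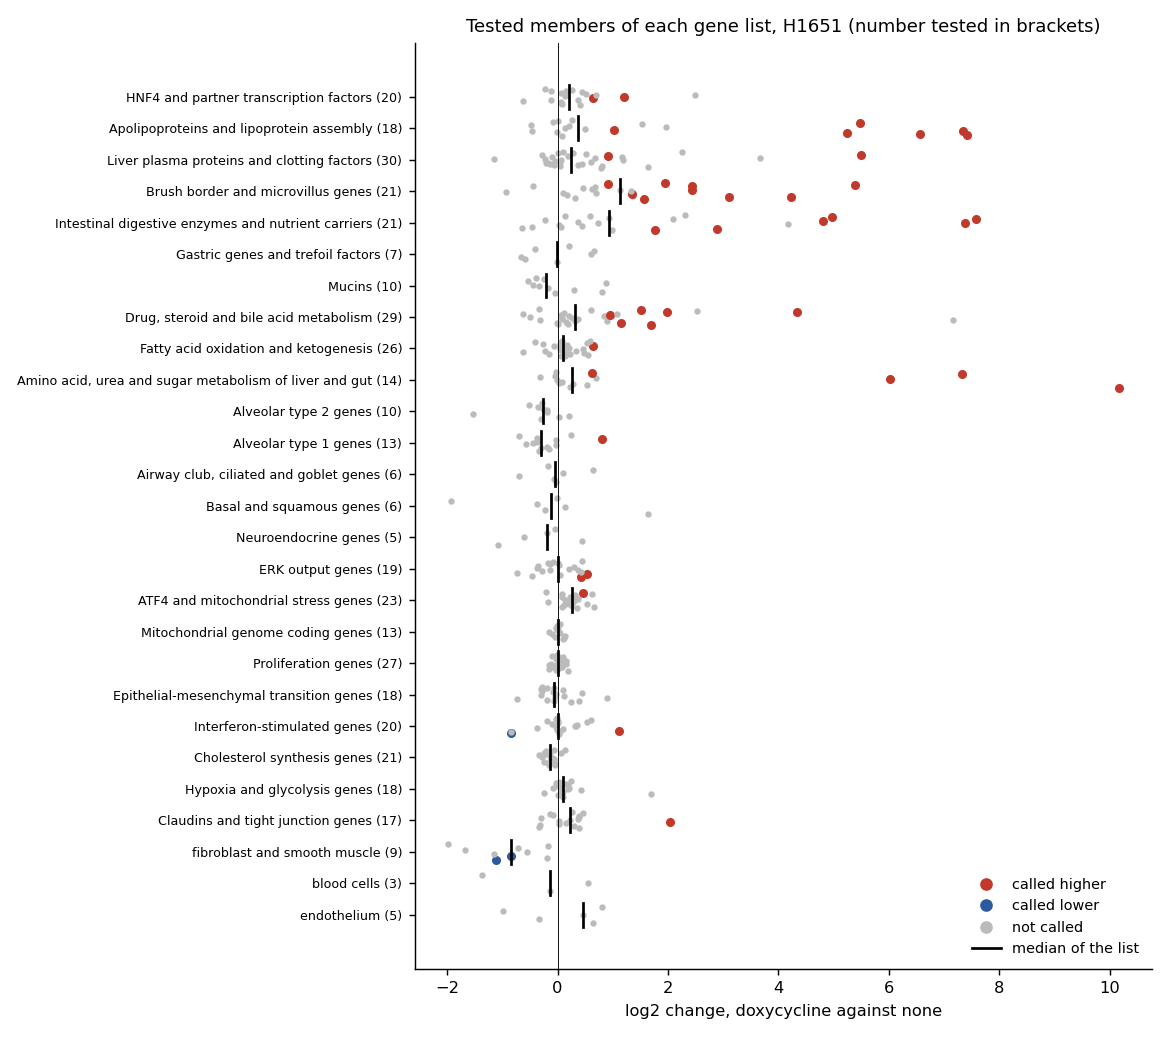
Log2 change with doxycycline of every tested member of the 27 gene lists, 1 point per gene (red higher, blue lower, grey not called), with the median of each list as a black bar and the number tested in brackets. The brush border bar (1.13) and the intestinal enzyme bar (0.93) lie farthest to the right, the fibroblast and smooth muscle bar (-0.84) lies farthest to the left, and most other bars lie near 0.

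A second set of H1651 libraries without doxycycline gives the levels side by side. These were 2 vehicle libraries of a 48-hour drug experiment, in a table that was scaled on its own, so no test joins them to the doxycycline table, and the labels name no construct for them. HNF4A was at 58.3 and 38.2 CPM there. For 151 of the 162 genes that rose with doxycycline and had a row, the vehicle mean lay below both doxycycline libraries, as it did for 7441 of 16992 tested genes with a row (43.8%). These genes were chosen for their high doxycycline values, so a share above that follows in part from the choice. For example, MTTP stood at 0.198 and 0.156 CPM, CDHR2 at 0.308 and 0.374 CPM, GPD1 at 0.726 and 0.716 CPM and ABCB1 at 16.2 and 11.1 CPM. Some did not follow this: TNNC1 was at 23.3 and 21.2 CPM, JAG1 at 71.5 and 85.7 CPM and KRT8 at 4363 and 3836 CPM, all near or above the level with doxycycline. VIL1, at 4.25 and 3.92 CPM, had a vehicle mean only just below its lower doxycycline library (4.15 CPM). For the 67 fallen genes the vehicle mean was above both doxycycline libraries in 38 and below both in 17 (above both for 34.0% of all tested genes with a row), with CGA at 13.6 and 23.3 CPM and SLITRK6 at 0.264 and 0.405 CPM. Among those below both were MMP11 at 5.21 and 5.14 CPM and GASK1B at 7.15 and 11.4 CPM. With a small constant added, the median log2 ratio of vehicle to no-doxycycline means was -0.58 for the falls and -0.083 for the rises.

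Hnf4a deletion in mouse offered the opposite change of the same factor in separate libraries. The organoid line 3154, from a mouse lung tumour model carrying KrasFSF-G12D and p53frt alleles together with Rosa-FSF-CreERT2, a tamoxifen-dependent recombinase, and Hnf4aflox, had received 4-hydroxytamoxifen for 2 days, which activates the recombinase and deletes Hnf4a, or ethanol. RNA was taken 2 weeks later from 2 libraries of each. Hnf4a was at 315 and 427 CPM with ethanol and at 53.5 and 68.0 CPM after deletion (log2 change of HNF4A -2.61, SE 0.21, adjusted p 0.00643). Of 10549 genes found in both tables by symbol, 644 (6.10%) fell and 411 (3.90%) rose after deletion.

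Of the 121 genes that rose with doxycycline and were in both tables, 46 fell after deletion (38.02%), HNF4A itself among them, 5 rose (4.13%) and 70 were not called. Their median log2 change after deletion was -0.76, against 0.003 over all 10549. Of the 35 genes that fell with doxycycline, 5 rose (14.3%) and 3 fell after deletion, and the median was 0.41. The 46 became 24 without deleted replicate 1 and 29 without deleted replicate 2. With another scaling, upper-quartile factors, the median of all genes in the mouse table shifted from 0.02 to 0.11, while the count stayed at 46.

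Of 7 risen brush border genes in both tables, 6 fell after deletion, among them 3 parts of the tip complex. CDHR2 fell from 233 and 250 to 25.0 and 25.5 CPM after deletion (log2 change -3.26, adjusted p 0.00193) and CDHR5 from 54.4 and 48.9 to 6.63 and 4.09 CPM (-3.26, adjusted p 0.00645). ANKS4B fell from 29.5 and 27.8 to 0.197 and 0.0750 CPM, a 205-fold ratio (interval 104 to 477, adjusted p 0.00193). VIL1 fell from 224 and 261 to 74.6 and 98.5 CPM (-1.49, adjusted p 0.0126). These 4 had moved the other way with doxycycline. MYO7B, the motor of the complex, was at 17.2 and 2.43 CPM and then at 3.84 and 1.20 CPM, with overlapping ranges, and was not called (-1.96, adjusted p 0.242). USH1C was not among the genes matched in both tables.

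Some of the lipoprotein and uptake genes also fell in the organoids, namely 3 of 4 risen apolipoprotein list members and 3 of 4 risen intestinal enzyme and carrier list members that were in both tables. APOA1 was at 4.05 and 25.0 CPM and then at 0.197 and 0.712 CPM, a 29.5-fold ratio (interval 19.8 to 45.9, adjusted p 0.0438), with a wide gap between the ethanol libraries. APOA4 was at 1.95 and 3.86 CPM and then at 0 in both deleted libraries, at least 52.5-fold lower (adjusted p 0.0158). MTTP fell from 37.8 and 54.3 to 15.4 and 17.0 CPM (-1.51, adjusted p 0.0173). RBP2 fell from 15.03 and 29.6 to 1.71 and 1.69 CPM (-3.71, adjusted p 0.0102), PIPOX by an 88.0-fold ratio (interval 24.0 to 733, adjusted p 0.0124) and ALPI by a 142-fold ratio (interval 60.7 to 440, adjusted p 0.0215). XPNPEP2, a membrane aminopeptidase that went from 2 and 0 counts to 87 and 102 with doxycycline, fell from 15.9 and 16.3 to 1.51 and 1.46 CPM (-3.43, adjusted p 0.0047).

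Other genes that rose with doxycycline were not called lower after deletion. APOE was at 2.57 and 4.54 CPM with ethanol and 2.30 and 2.85 CPM after deletion (log2 change -0.46, adjusted p 0.465). FABP2 was at 0.791 and 0.584 CPM and then at 0.985 and 0.750 CPM (0.32, adjusted p 0.636). GPD1 was at 185 and 203 CPM with ethanol and 223 and 192 CPM after deletion (0.10, adjusted p 0.667), and KRT8 at 4134 and 3623 CPM and then at 3683 and 4033 CPM (-0.01, adjusted p 0.977). Ranges overlapped for all 4. CXCL16, a chemokine chosen after its values were seen, was higher in both experiments (15.6 and 14.5, then 56.8 and 59.9 CPM after deletion, 1.96, adjusted p 0.00551). Among the genes that fell with doxycycline, MMP11 rose after deletion (15.9 and 14.3, then 37.7 and 26.0 CPM, 1.08, adjusted p 0.0417), as did THBS1, a matrix protein also chosen after its values were seen (5.34 and 12.98, then 39.9 and 32.8 CPM, 2.00, adjusted p 0.0412), which had a log2 change of -0.59 with doxycycline (adjusted p 0.0253). The doxycycline call of THBS1 was lost without no-doxycycline replicate 2 (-0.51).

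**Figure D5:**
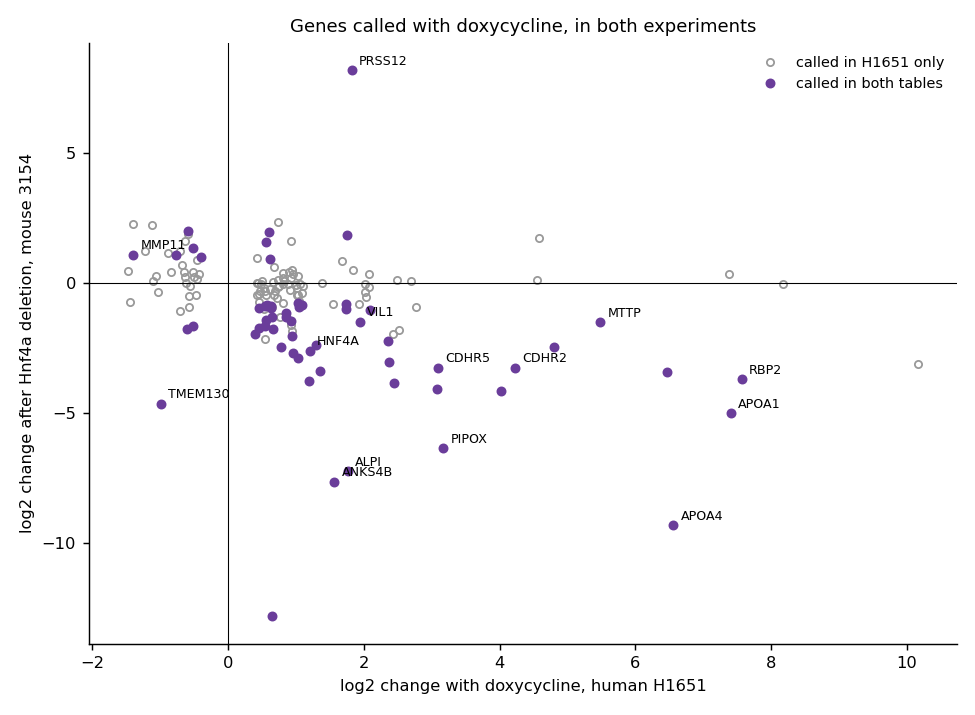
Log2 change with doxycycline in human H1651 against log2 change after Hnf4a deletion in mouse 3154 organoids, for the 121 genes that rose and the 35 that fell with doxycycline and were in both tables; filled points were called in both. The lower right quadrant, higher with doxycycline and lower after Hnf4a deletion, holds the 46 filled points that include APOA1, CDHR2 and RBP2.

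Promoters of the 46 reciprocal genes were searched for letters that HNF4α is known to bind, since their mouse sequences were to hand; human promoters were not analysed here. RefSeq promoter windows of GRCm38.p6, from 250 bases before to 50 after each gene's start, were matched for 37 of the 46. CAAAGTCCA, a motif that HNF4α prefers over other nuclear receptors, was found on either strand in 2 of the 37 (5.41%) and in 150 of all 27025 genes (0.555%). Its first 8 letters, CAAAGTCC, which every match of the longer motif holds, were found in 4 (10.8%) and in 440 (1.63%). CAAAGGTCA, part of a direct repeat that many nuclear receptors share, was found in 1 (2.703%) and in 147 (0.544%). The 27025 genes include many that were not tested in the organoids, so the shares have unlike bases. They rest on 1, 2 or 4 matched genes, and no test compared them. A match describes the letters in the window and is neither a shown binding site nor a cause.

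The 3 windows with the largest rises among the 4 holding a match are shown because they belong to genes described above in both experiments, the retinol carrier, the peroxisomal oxidase and the alkaline phosphatase. They run 5′ to 3′ on the gene's strand, with matches on either strand in capitals. Rbp2 lies at chr9:98490287-98490586 on the plus strand, Pipox at chr11:77893823-77894122 on the minus strand and Alpi at chr1:87101557-87101856 on the minus strand.
Rbp2: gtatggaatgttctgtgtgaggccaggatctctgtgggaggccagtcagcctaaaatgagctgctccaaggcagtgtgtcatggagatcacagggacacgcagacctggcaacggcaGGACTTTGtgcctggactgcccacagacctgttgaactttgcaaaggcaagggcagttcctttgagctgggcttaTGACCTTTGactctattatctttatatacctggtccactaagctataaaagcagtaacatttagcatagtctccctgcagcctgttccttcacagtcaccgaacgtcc
Pipox: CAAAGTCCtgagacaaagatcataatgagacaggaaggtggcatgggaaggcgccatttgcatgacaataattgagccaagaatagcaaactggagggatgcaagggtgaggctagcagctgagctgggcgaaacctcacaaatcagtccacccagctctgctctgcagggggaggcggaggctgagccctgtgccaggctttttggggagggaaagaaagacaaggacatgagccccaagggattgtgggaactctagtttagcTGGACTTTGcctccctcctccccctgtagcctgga
Alpi: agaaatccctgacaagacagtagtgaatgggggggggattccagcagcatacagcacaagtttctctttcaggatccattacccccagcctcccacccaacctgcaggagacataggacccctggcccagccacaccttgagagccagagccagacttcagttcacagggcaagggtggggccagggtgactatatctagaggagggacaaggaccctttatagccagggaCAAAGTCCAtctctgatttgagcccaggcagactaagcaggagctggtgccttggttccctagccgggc
The Rbp2 window holds a CAAAGTCC match and a CAAAGGTCA match, both on the opposite strand. Pipox has CAAAGTCC at the far end of its window and CAAAGTCCA on the opposite strand near the start of the gene, and Alpi has CAAAGTCCA just before the start.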

How the data were processed

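Per the labels, poly(A) RNA was made into strand-specific libraries and read from both ends. The authors deposited raw read counts per Ensembl gene, not normalized. The submitters' processing notes name cutadapt 3.5, STAR 2.7.6a, featureCounts 1.6.3 and the builds hg38, mm10 and mm39; the strand setting and annotation are not given in the sources used here. The authors deposited 7 such files, of which 3 were used: H1651 with and without doxycycline (lowest gene sum 6 counts, 2953 of 20800 rows without a symbol), 2-week 3154 deletion, and H1651 vehicle. Each was scaled on its own.

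In R 4.3.3, edgeR 4.0.16 kept genes by filterByExpr, scaled by TMM and compared 2 against 2 libraries with the quasi-likelihood F-test, with Benjamini-Hochberg adjustment over all genes tested and calls at an adjusted p under 0.05. With 2 against 2 libraries a two-sided exact permutation test cannot go below 0.333. The SE is the log2 change divided by the square root of F. The biological coefficient of variation was 0.0949 for H1651 and 0.193 for the mouse table, whose libraries held 24039799 to 30857875 counts and 14492 tested genes. A group at 0 gives a lower bound against 3 counts over the group; other low counts give ratios with exact 95% intervals, for counting error only. In simulated counts with 200 changed genes, 84.5% of 2-fold changes (17014 genes) and 98.5% of 4-fold changes (17022 genes) were recovered with the right sign, while 11.5% and 7.08% of the calls made were false. The changed genes were drawn from those with a mean above 1 CPM over all libraries. The shares recovered therefore do not describe genes below that level or changes under 2-fold.

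The members and the 27 lists (573 genes) were chosen with earlier results of these data known. Named genes were HNF4A, HNF4G, FOXA1, FOXA2, FOXA3 and NKX2-1, then up to 6 called members of each list by size or, with none called, up to 3 of the highest level. The rule added the 15 largest rises and 15 largest falls above 5 CPM without overlap, and up to 15 genes higher with doxycycline and lower after deletion. A selection is printed with further members of the lists, and genes outside the rule are said to be so; some genes of the rule and of the lists are not reported here. Human and mouse genes were matched by upper-case symbol. Other settings were upper-quartile or RLE factors, DESeq2 1.42.0, testing all listed genes, at least 10 counts in every library, a replicate block, an added 2-fold limit, and each library left out.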

Additional observations from a re-analysis of the deposited data

How the results depend on the processing

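With DESeq2, 451 genes were called with doxycycline (294 higher, 157 lower), without a count filter 102 were lower, and with an added limit of 2-fold 127 were called (104 higher, 23 lower). Of the 180 rises and 67 falls, DESeq2 also called 179 and 67, RLE factors 179 and 62, and upper-quartile factors 171 and 67. No call had the opposite sign under any of the alternatives, left-out libraries included. In every call both doxycycline libraries lay on one side of both others, so a reversed sign could hardly arise. With at least 10 counts in every library, 30 of the 247 genes were not tested and 30 were tested and missed the threshold, APOE and PCK2 among them, so that 132 rises and 55 falls were kept. The apolipoprotein list then went from 6 calls to 0, the intestinal enzyme list from 6 to 3, and the amino acid and sugar list from 4 to 0. Leaving out 1 library, with the lone one assumed to vary like the others, gave 232 to 412 calls, 172 to 270 higher and 60 to 159 lower, and 24 to 62 for the 46 genes higher with doxycycline and lower after deletion. Between 138 and 170 rises and 38 and 63 falls were kept. Over those left-out fits HNF4G ran from -0.033 to 0.34, FOXA1 from -0.14 to 0.29 and FOXA2 from -0.083 to 0.24, with values below 0 without no-doxycycline replicate 2 (FOXA1 -0.12) and, for both FOXA genes, without doxycycline replicate 1 (FOXA2 -0.067).

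The replicate numbers are not said to pair the libraries. As a hint from the data, differences between replicates correlated between the groups at 0.318 across genes in H1651 and 0.427 in 3154. With the replicate number as a block 3048 genes were called (1611 higher, 1437 lower), the apolipoprotein, brush border, intestinal enzyme and amino acid and sugar lists held 10, 18, 11 and 7 rises, and all 180 rises and 67 falls were kept. The lists described above as without a call then held calls too, higher and lower: 1 and 4 alveolar type 2, 2 and 0 gastric, 2 and 0 mucin, 2 and 2 proliferation, 1 and 1 mitochondrial genome, 4 and 6 epithelial-mesenchymal transition, 1 and 11 cholesterol synthesis and 7 and 1 hypoxia and glycolysis genes, 0 and 1 blood cell and 0 and 1 endothelial markers, with 17.6% of all tested genes called. Among genes named as not passing, NKX2-1 (log2 change -0.35), GATA6 (0.64), NR1I2 (2.495), ABCA3 (-0.31), LPCAT1 (-0.20), FABP1 (4.18), PDGFRB (-1.67) and DCN (-1.14) were called with the block. At 23042260 counts or more per library, 3 counts are at most 0.132 CPM, so the exact starting level of genes below that is not known.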
